A study of Mus musculus with 11 samples.

Results

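Cytosolic ribosomal protein genes were followed in lacrimal glands of male NOD mice. The genes were taken by symbol: every gene of the deposited table named Rpl, Rps or Rplp with a number and at most a short letter suffix, with no pseudogene suffix. This gave 86 of the 19058 genes in the table, 52 of the large (60S) subunit and 34 of the small (40S) subunit. GENCODE places them on 19 chromosomes, with 15 on chromosome 7, and annotates 81 as protein coding and 5 (*Rpl6l*, *Rps12l1*, *Rps3a2*, *Rps3a3* and *Rps4l*) as processed pseudogenes. Genes such as *Rpsa*, *Fau* and *Rack1* also code for ribosomal proteins but fall outside the symbol rule, and these are described separately.

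The RNA came from whole lacrimal gland, 1 gland and 1 library per mouse, in 3 groups on the NOD (NOD/ShiLtJ) background. NOD is an inbred strain whose males develop lacrimal gland inflammation without treatment. The groups were wild-type mice (WT, n = 3), *Tlr7* knockout mice (*Tlr7* KO, n = 5), which carry a small CRISPR/Cas9 deletion in the gene of the RNA sensor TLR7, and *Ifnar1* knockout mice (*Ifnar1* KO, n = 3), which lack a chain of the type I interferon receptor. WT and *Tlr7* KO mice were 20 to 22 weeks old, and the age of the *Ifnar1* KO mice was not given in the sources used here. Both knockouts are carried in every cell of the animal, and the same 3 WT mice serve both comparisons. Fewer cells of a type and less RNA per cell cannot be told apart in RNA from a whole gland.

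The cytosolic ribosome is built from RNA made in the nucleolus and from a fixed set of proteins, one copy of nearly each per subunit. Ribosomal protein mRNAs are among the most abundant of a growing or secreting cell, and many begin with a run of pyrimidines (C or T) that places their translation under the control of the mTOR pathway and the protein LARP1. The mouse genome also holds many processed pseudogenes of these genes, copies made from mRNA, and a short read can match the gene and its copies equally well.

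Reads of a gene and of such a copy can be hard to tell apart, so the sequences of 2 genes and their most counted copies are given first. Each is a stretch of 90 coding bases from the GRCm38 reference genome within 1 exon of the gene, with the bases that differ between gene and copy in capitals. The reference is not the NOD strain, and NOD alleles were not used here. *Rpl3* (chr15:80082493-80082582, minus strand, exon 2, coding bases 4 to 93) and *Rpl3-ps1* (chrX:13202575-13202664, plus strand) differ at 1 base of the stretch and at 2 of 1209 coding bases (99.8% identity).

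Rpl3: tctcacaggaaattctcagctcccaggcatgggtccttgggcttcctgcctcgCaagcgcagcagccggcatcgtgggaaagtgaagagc

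Rpl3-ps1: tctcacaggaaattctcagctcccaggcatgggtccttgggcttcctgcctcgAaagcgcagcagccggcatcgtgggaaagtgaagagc

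*Rpl10* (chrX:74271802-74271891, plus strand, exon 3, coding bases 85 to 174) and *Rpl10-ps3* (chr9:50344768-50344857, minus strand) are identical here and over all 642 coding bases, so no base is in capitals.

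Rpl10: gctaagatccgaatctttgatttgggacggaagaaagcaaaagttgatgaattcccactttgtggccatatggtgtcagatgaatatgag

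Rpl10-ps3: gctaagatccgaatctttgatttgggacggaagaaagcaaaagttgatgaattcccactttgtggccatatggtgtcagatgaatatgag

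The start sites of 6 genes that were lower in at least 1 knockout follow, since each window holds a run of pyrimidines, the letters for which the starts of the class are known. Each window has 15 bases before and 15 bases from the RefSeq start site (GRCm38), and capitals mark every run of at least 8 bases that are all C or T, read on the gene's strand only. A run anywhere in the window counts, so it need not begin at the start site: in *Rps15a* the first of 2 runs ends before the site, and in *Rpl13a* and *Rpl39* the run begins after it. The windows are *Rpl13a* (chr7:45128731-45128760, minus strand), *Rpl39* (chrX:37085208-37085237, minus strand), *Rps15a* (chr7:118116133-118116162, minus strand), *Rps18* (chr17:33955651-33955680, minus strand), *Rps24* (chr14:24490663-24490692, plus strand) and *Rps9* (chr7:3704026-3704055, plus strand).

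Rpl13a: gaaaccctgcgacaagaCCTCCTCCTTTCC

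Rpl39: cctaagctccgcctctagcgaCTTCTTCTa

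Rps15a: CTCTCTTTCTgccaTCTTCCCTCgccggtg

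Rps18: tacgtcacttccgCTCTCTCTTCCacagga

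Rps24: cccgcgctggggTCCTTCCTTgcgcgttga

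Rps9: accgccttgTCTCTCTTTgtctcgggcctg

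Of the 86 genes, 61 matched a RefSeq start site, and 26 of them (42.6%) held such a run in the 30-base window. The share was 14.9% among the 10455 genes tested that matched and 12% among all 32851 entries. Of the 11 matched genes that were lower in at least 1 knockout, 6 held a run. A match describes the letters of the window and is no test of translation. A second shared feature was the hosting of small nucleolar RNAs, which guide the modification of ribosomal RNA: 28 of 79 tested protein-coding ribosomal protein genes (35.4%) overlapped an annotated one, against 206 of 12819 protein-coding genes tested (1.61%).

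Libraries held 20512315 to 28814250 estimated counts. *Tlr7* was at 1.52 to 2.94 CPM (counts scaled for library size by the TMM method of edgeR) in WT and 0.494 to 0.949 CPM in *Tlr7* KO, and *Ifnar1* was at 10.5 to 15.1 CPM in WT and 8.34 to 9.63 CPM in *Ifnar1* KO, so each targeted gene was lower in all of its knockout mice while its RNA was still counted. In the other knockout *Tlr7* was at 0.251 to 0.822 CPM, below every WT mouse, and *Ifnar1* at 8.34 to 11.2 CPM, with *Tlr7* KO mouse 2 above WT mouse 2. A few secretory genes took much of every library: the 10 most abundant genes held 65.8% of the counts in WT mouse 2, 65.9% in *Tlr7* KO mouse 5 and 54.0 to 59.4% in the other 9. The TMM factors of WT mice 1 and 3 were 1.43 and 1.48, that of WT mouse 2 was 0.87, and that of *Tlr7* KO mouse 5 was 0.69, so WT mouse 2 stood apart from the other WT mice. The counts of genes called are therefore also given without it.

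Ribosomal protein genes took a larger share of the estimated counts in WT than in either knockout. The share was 1.72, 1.51 and 1.83% in the 3 WT mice, 1.05, 1.03, 1.01, 1.06 and 0.885% in the 5 *Tlr7* KO mice, and 1.12, 1.02 and 1.09% in the 3 *Ifnar1* KO mice. Every WT mouse was above every knockout mouse, and the 2 knockouts overlapped. The group means were 1.69% ± 0.159 (SD, n = 3), 1.01% ± 0.0715 (SD, n = 5) and 1.08% ± 0.0499 (SD, n = 3). With the 10 most abundant genes of the table left out of the total, the share was 3.83 to 4.43% in WT, 2.46 to 2.60% in *Tlr7* KO and 2.41 to 2.67% in *Ifnar1* KO. A share of counts moves with everything else in the library, and the comparisons after TMM scaling, which sets the bulk of genes level between libraries, gave a smaller difference.

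**Figure D1:**
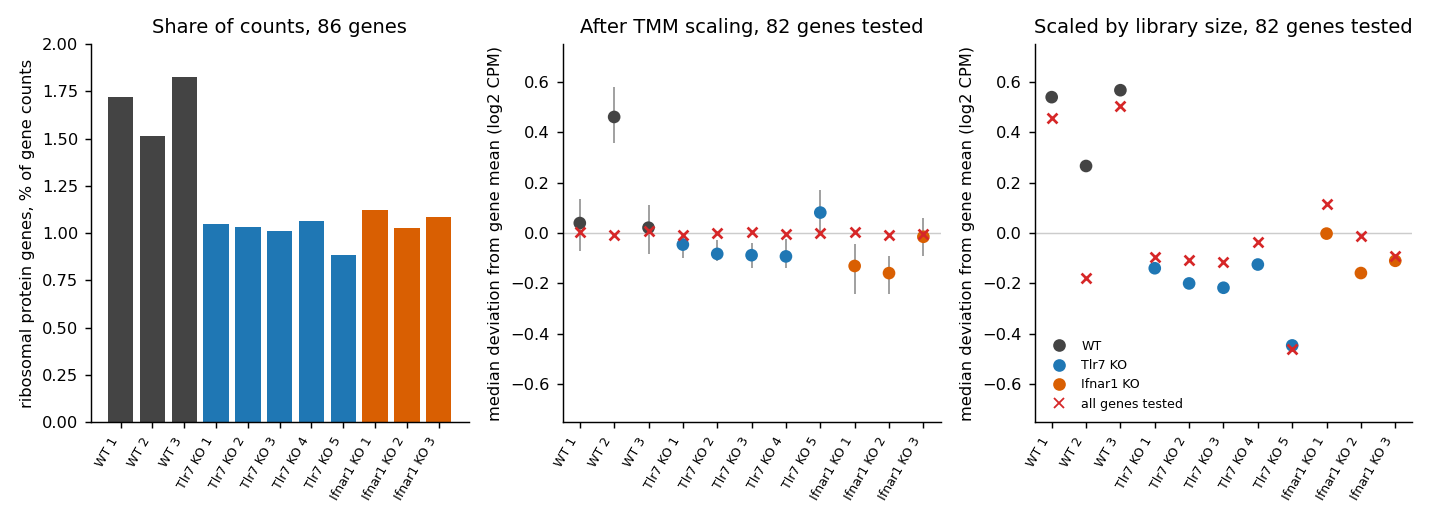
Ribosomal protein genes in each mouse: bars give their share of all estimated counts in percent, and points the median log2 deviation of the 82 tested genes from their means over the 11 mice, after TMM scaling (lines: quartiles) and with library size alone, with crosses for the median of all genes tested. All 3 WT mice lie above all knockout mice in share, whereas after TMM scaling WT mouse 2 stands at 0.46 and the other mice lie between -0.16 and 0.08.

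On the TMM scale the higher level in WT lay mostly in 1 mouse. For each of the 82 genes with enough counts to be tested, the log2 CPM of a mouse was compared with the gene's mean over all 11 mice. The median deviation was 0.04, 0.46 and 0.02 in WT mice 1, 2 and 3, with 79 of 82 genes above their mean in WT mouse 2, 51 in WT mouse 1 and 44 in WT mouse 3. It was -0.05, -0.08, -0.09, -0.09 and 0.08 in the *Tlr7* KO mice and -0.13, -0.16 and -0.01 in the *Ifnar1* KO mice. WT mouse 2 was therefore the highest of the 11 mice, and *Tlr7* KO mouse 5, the other mouse with a low TMM factor, was above WT mice 1 and 3. With scaling by library size alone the deviations were 0.54, 0.27 and 0.57 in WT and -0.45 to 0.00 in the knockouts, and the median of all genes moved with them, to 0.45, -0.18 and 0.50 in WT and -0.46 to 0.11 in the knockouts.

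The genes spanned a wide range of levels, and their order was nearly the same in every group. Compared per kilobase of transcript, the highest mean TMM-scaled levels over the 11 mice were 1227 CPM per kb for *Rps14*, 798 for *Rplp1*, 768 for *Rpl41*, 647 for *Rpl13a* and 632 for *Rplp0*. *Rps14* and *Rpl13a* are proteins of the small and the large subunit, *Rplp0* and *Rplp1* form the acidic stalk of the large subunit that recruits elongation factors, and *Rpl41* is the smallest ribosomal protein. *Rps14* was first in WT, *Tlr7* KO and *Ifnar1* KO (1744, 1132 and 867 CPM per kb), and *Rpl13a* was the second in WT and the fifth in both knockouts (948, 564 and 486). The tested genes had a median transcript length of 713 bases, against 2075 for all genes tested, and a GC content of 51.6% against 50.7%. Not corrected for length, 69 of the 86 genes had a mean of at least 10 CPM, 46 of at least 100 CPM and 9 of under 1 CPM, and the 10 highest held 36.2% of the class. The 4 that were too low to be tested were *Rpl3*, *Rpl39l*, *Rpl6l* and *Rps3a3*. For genes with many copies these levels depend on how reads were assigned, as described below: *Rpl3* had a mean of 2641 counts in the second deposited table. Spearman's rho of the mean levels across the 86 genes was 0.994 between WT and *Tlr7* KO and 0.990 between WT and *Ifnar1* KO, as a description across genes that share libraries.

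In *Tlr7* KO glands 15 of the 82 tested ribosomal protein genes were lower than in WT and 0 were higher (edgeR quasi-likelihood test, Benjamini-Hochberg adjusted p under 0.05 over all 13937 genes tested). The share lower, 18.3%, was near that of all genes, of which 17.4% were lower and 15.3% higher. At an unadjusted p under 0.05, 28 were lower and 1 higher (34.1 and 1.22%, against 24.2 and 20.6% of all genes), and DESeq2 called 19 lower and 0 higher (23.2% lower, against 17.6% of all genes). The median log2 fold change (*Tlr7* KO over WT) was -0.21, against -0.04 for all genes, and 75 of 82 values were below 0. Small-subunit genes were lower in 8 of 33 cases and large-subunit genes in 7 of 49. For 18 genes (22%) every *Tlr7* KO mouse was below every WT mouse, against 14.2% of all genes, and none was above (against 16.6%).

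In *Ifnar1* KO glands 10 of the 82 genes were lower than in WT and 0 were higher in the same test. Per the methods, another *Ifnar1* KO mouse had been set aside by the authors because its expression profile and gland inflammation resembled WT, so these 3 mice were selected in part on their outcome, and the comparison holds for mice selected in that way. The share lower by edgeR, 12.2%, lay near that of all genes, of which 12.4% were lower and 6.76% higher. At an unadjusted p under 0.05 there were 28 lower and 1 higher (34.1 and 1.22%, against 21.8 and 15.7% of all genes). DESeq2 called 19 lower and 0 higher, and there the share lower was above that of all genes (23.2 against 15%). The median log2 fold change (*Ifnar1* KO over WT) was -0.29, against -0.02 for all genes, with 75 of 82 values below 0. Calls fell on 6 of 33 small-subunit and 4 of 49 large-subunit genes. Every *Ifnar1* KO mouse was below every WT mouse for 32 genes (39.0%, against 21.1% of all genes) and above for 1, *Rpl28* (against 20.7% of all genes).

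**Figure D2:**
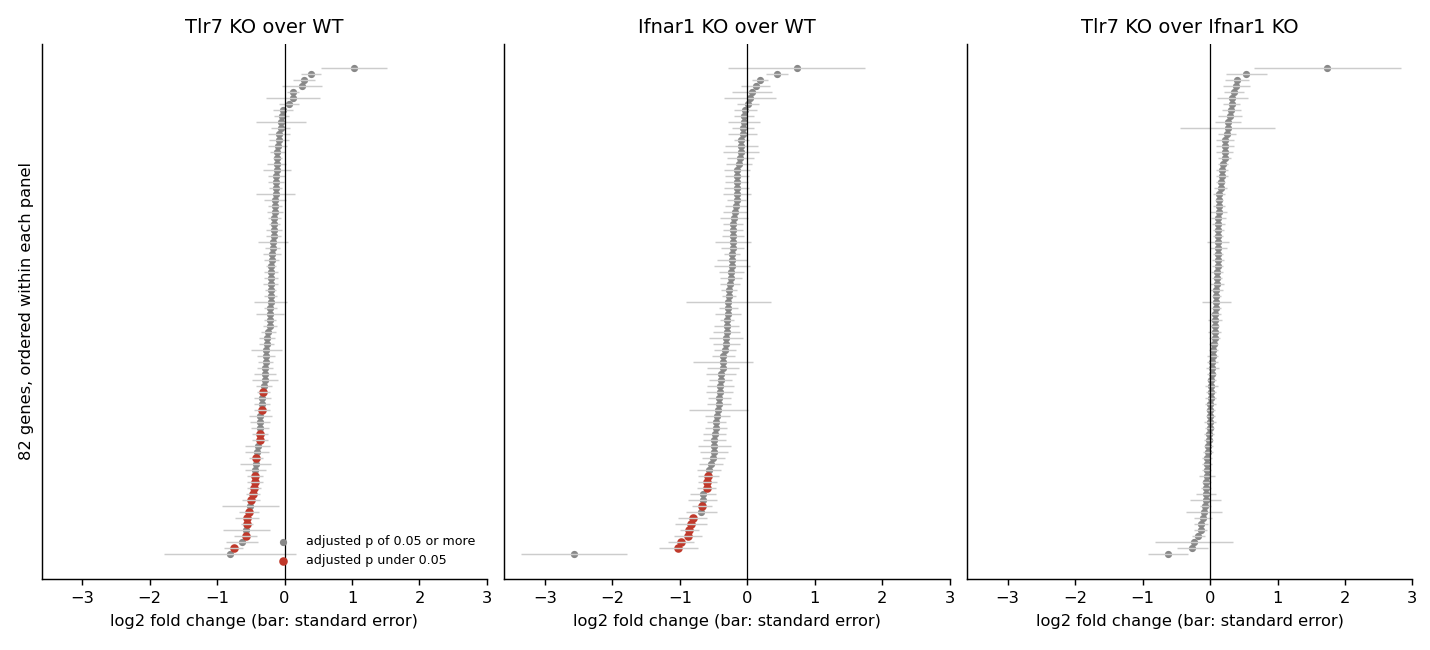
Log2 fold change (point) and standard error (bar) of each of the 82 tested ribosomal protein genes, ordered within each of the 3 comparisons, with genes at an adjusted p under 0.05 in red. In both comparisons with WT 75 of 82 values lie below 0, with 15 and 10 genes past the test, and between the knockouts 60 lie above 0 with 0 past the test.

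These counts depended on which mice were included and on a joint correction for transcript length and GC content. Without WT mouse 2, 80 of the genes were tested, and in *Tlr7* KO 13 of them fell and 5 rose, with a median of -0.10. Of all 13492 genes tested in that setting, 25.6% were lower and 23.3% higher, against 16.2 and 6.25% of the ribosomal protein genes. Of the 15 genes lower with all mice, 11 were among the 13, and *Rpl22*, *Rps3* and *Rps24* were not. The 5 higher genes were *Rps27l*, *Rpl10*, *Rpl36al*, *Rpl32* and *Rps12*. In *Ifnar1* KO the median without WT mouse 2 was -0.13, with 11 genes lower (13.8%, against 20.8% of all genes), among them all 10. No gene was called lower in *Ifnar1* KO without WT mouse 1, WT mouse 3, *Ifnar1* KO mouse 1 or *Ifnar1* KO mouse 3, and 1 was without *Ifnar1* KO mouse 2. In the first 4 of these settings 10, 88, 0 and 0 of all genes tested were lower, so the zeros are not particular to ribosomal protein genes, whereas without *Ifnar1* KO mouse 2 it was 1151 (8.26%). In *Tlr7* KO the lowest counts were 5, 6, 7 and 9, without *Tlr7* KO mice 3, 1, 4 and 2 (6.1, 7.32, 8.54 and 11% of the class, against 12.5, 12.6, 13.6 and 16.9% of all genes). After the length and GC correction, 2 genes were lower (*Rps9* and *Rps20*) and 1 higher (*Rpl28*) in *Tlr7* KO, with a median of -0.03 against 0.14 for all genes tested, and 1 was lower (*Rpl39*) and 1 higher (*Rpl28*) in *Ifnar1* KO, with a median of -0.02 against 0.24. Of all genes, 12.6% were lower and 24.1% higher in *Tlr7* KO under this correction, and 11.2 and 17.6% in *Ifnar1* KO. The correction thus also moved the median of all genes upward, from -0.04 (*Tlr7* KO) and -0.02 (*Ifnar1* KO) without it. Relative to all genes, the class median was -0.17 and -0.26 with the correction, against -0.18 and -0.27 without it.

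Relative to the median of all genes, the ribosomal protein genes had a lower median in both knockouts under all 5 scalings tried and the length and GC correction, at -0.16 to -0.18 in *Tlr7* KO and at -0.23 to -0.27 in *Ifnar1* KO on the log2 scale. The 5 scalings move all genes of a library alike, here and in the comparisons below. Their similar values follow from the subtraction and do not test the scaling. Without WT mouse 2 the same values were -0.07 and -0.12. With library size alone the median of all genes itself lay at -0.54 (*Tlr7* KO) and -0.31 (*Ifnar1* KO), and 67 and 25 of the 82 genes were called lower (81.7 and 30.5%), against 30.7 and 9.24% of all genes.

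The 8 genes lower in both knockouts were *Rpl13a*, *Rpl22*, *Rpl36a* and *Rpl39* of the large subunit and *Rps3*, *Rps9*, *Rps15a* and *Rps20* of the small subunit. They are 8 of the 15 called in *Tlr7* KO and 8 of the 10 called in *Ifnar1* KO, and both comparisons use the same WT mice, so the overlap is not independent. The genes called in *Tlr7* KO alone included *Rpl23a*, *Rpl26*, *Rps18*, *Rps19* and *Rps24*, and those called in *Ifnar1* KO alone were *Rps14* and *Rps27a*. Of the 17 genes, 6 host a small nucleolar RNA.

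*Rpl13a* is a protein of the large subunit that is also known to leave the ribosome after interferon-γ treatment and to silence inflammatory mRNAs. Its level was 419, 556 and 433 CPM in WT, 260, 294, 263, 240 and 339 CPM in *Tlr7* KO and 214, 234 and 274 CPM in *Ifnar1* KO. All knockout mice were below all WT mice, with WT mouse 2 the highest of its group and *Tlr7* KO mouse 5 the highest of the knockouts. The log2 fold change was -0.75 (SE 0.139, adjusted p = 0.00475 by edgeR) in *Tlr7* KO and -0.98 (SE 0.193, adjusted p = 0.0235) in *Ifnar1* KO. Without WT mouse 2 it was -0.62 in *Tlr7* KO (adjusted p = 0.00325), and with the length and GC correction -0.46 (adjusted p = 0.0525). In *Ifnar1* KO the same settings gave -0.85 (adjusted p = 0.0114) and -0.65 (adjusted p = 0.0811). With the correction *Rpl13a* therefore passed the test in neither knockout.

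*Rps9* is a protein of the small subunit near the entry of the mRNA. It was at 292, 352 and 294 CPM in WT, at 212, 218, 208, 205 and 222 CPM in *Tlr7* KO and at 199, 189 and 208 CPM in *Ifnar1* KO. No knockout mouse reached the lowest WT mouse. The log2 fold changes were -0.56 (SE 0.090, adjusted p = 0.00293) and -0.67 (SE 0.154, adjusted p = 0.0288). In *Tlr7* KO *Rps9* was still called with the length and GC correction (-0.35, adjusted p = 0.0447). In *Ifnar1* KO it stood at -0.35 under the correction (adjusted p = 0.243) and no longer passed the test.

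*Rps3* lines the mRNA entry channel and is also known as a DNA repair nuclease and a partner of NF-κB. It was at 485, 752 and 539 CPM in WT, 368, 402, 376, 337 and 507 CPM in *Tlr7* KO and 314, 326 and 384 CPM in *Ifnar1* KO. WT and *Tlr7* KO overlapped, because *Tlr7* KO mouse 5 was above WT mouse 1, while every *Ifnar1* KO mouse was below WT. The log2 fold changes were -0.58 (SE 0.172, adjusted p = 0.0300) and -0.81 (SE 0.219, adjusted p = 0.0423). The value of *Rps3* in *Tlr7* KO without WT mouse 2 was -0.37 (adjusted p = 0.0567), no longer past the test.

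*Rpl22* and *Rpl39* were 2 further large-subunit genes lower in both knockouts. *Rpl22*, a protein that is dispensable for general translation and needed for the development of αβ T cells, was at 83.2, 136 and 93.5 CPM in WT, 62.7, 66.8, 69.3, 64.0 and 93.7 CPM in *Tlr7* KO and 53.5, 52.4 and 66.1 CPM in *Ifnar1* KO. *Rpl39*, which lies in the exit tunnel, was at 84.8, 116 and 94.8 CPM in WT, 62.1, 66.8, 62.5, 62.0 and 89.5 CPM in *Tlr7* KO and 52.9, 54.9 and 57.2 CPM in *Ifnar1* KO. In both genes *Tlr7* KO mouse 5 lay inside the WT range and the other 4 *Tlr7* KO mice below it. The log2 fold changes of *Rpl22* were -0.55 (SE 0.179, adjusted p = 0.0414) and -0.88 (SE 0.209, adjusted p = 0.0315), and those of *Rpl39* -0.53 (SE 0.147, adjusted p = 0.0233) and -0.86 (SE 0.144, adjusted p = 0.0219). Without WT mouse 2 the value of *Rpl22* in *Tlr7* KO was -0.32 (adjusted p = 0.105).

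The other 3 genes were lower by similar amounts. *Rpl36a*, near the site where the spent tRNA leaves, was at 70.4 to 96.3 CPM in WT, 51.9 to 69.9 CPM in *Tlr7* KO and 51.4 to 56.8 CPM in *Ifnar1* KO. *Rps15a* was at 110 to 139 CPM in WT, 83.1 to 103 CPM in *Tlr7* KO and 78.4 to 85.4 CPM in *Ifnar1* KO, and *Rps20* at 159 to 201, 118 to 146 and 112 to 120 CPM. None of these 3 genes had overlapping WT and knockout mice.

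**Figure D3:**
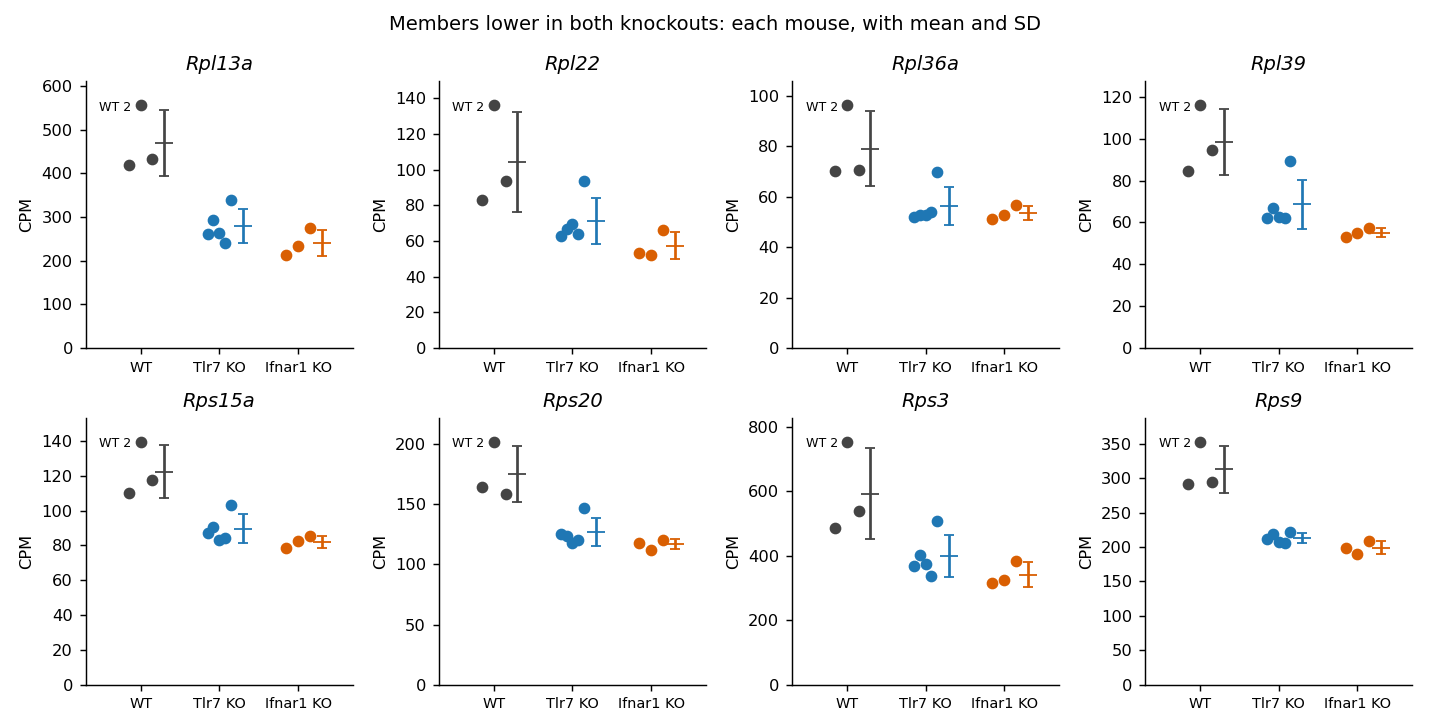
TMM-scaled CPM in each mouse, with group mean and SD, of the 8 ribosomal protein genes lower in both knockouts (each axis starts at 0). WT mouse 2 is the highest mouse in all 8 panels, and *Tlr7* KO mouse 5 reaches into the WT range for *Rpl22*, *Rpl39* and *Rps3*.

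The 2 genes called in *Ifnar1* KO alone had lower group means in *Tlr7* KO too, but overlapped WT and did not pass the test there. *Rps14* was at 745, 1380 and 1011 CPM in WT, 595, 730, 629, 498 and 941 CPM in *Tlr7* KO and 416, 500 and 643 CPM in *Ifnar1* KO. *Tlr7* KO mouse 5 overlapped WT, and every *Ifnar1* KO mouse was below WT. The log2 fold change was -1.02 in *Ifnar1* KO (SE 0.289, adjusted p = 0.0470) and -0.63 in *Tlr7* KO (SE 0.235, adjusted p = 0.0666), and the difference between the knockouts had an adjusted p of 0.376. *Rps27a*, made as a fusion of ubiquitin with a ribosomal protein, was at 197, 344 and 214 CPM in WT, 154, 172, 172, 165 and 275 CPM in *Tlr7* KO and 132, 136 and 160 CPM in *Ifnar1* KO. Its level in *Tlr7* KO mouse 5 was above WT mice 1 and 3, and every *Ifnar1* KO mouse was below WT, with log2 fold changes of -0.83 (SE 0.238, adjusted p = 0.0485) in *Ifnar1* KO and -0.43 (SE 0.231, adjusted p = 0.182) in *Tlr7* KO.

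Of 14 tested members known for a role outside protein synthesis or for a place in the ribosome, 5 were lower in at least 1 knockout (35.7%, against 17 of 82, or 20.7%, of the class): *Rpl13a*, *Rps3*, *Rpl22* and *Rps27a*, described above, and *Rps19*. The 14 are part of the 82, and the share of all genes lower in at least 1 knockout was not counted. In the single comparisons 17.4% of all genes were lower in *Tlr7* KO and 12.4% in *Ifnar1* KO. *Rpl5* and *Rpl11*, which bind MDM2 when ribosome assembly fails, were at -0.22 and -0.43 on the log2 scale in *Tlr7* KO (adjusted p = 0.444 and 0.0581), and in *Ifnar1* KO at -0.09 and -0.66 (adjusted p = 0.833 and 0.0722). The stalk genes *Rplp0*, *Rplp1* and *Rplp2* had values of -0.14, -0.12 and -0.22 in *Tlr7* KO and -0.37, -0.23 and -0.28 in *Ifnar1* KO, with adjusted p-values of 0.103 to 0.692. *Rpl38* and *Rps26*, linked to the translation of particular mRNAs, were at -0.19 and -0.21 in *Tlr7* KO and -0.22 and -0.16 in *Ifnar1* KO and did not pass either. *Rps6*, the protein phosphorylated by S6 kinase, lay at -0.17 and 0.07 (adjusted p = 0.572 and 0.885), and *Rpl10* at -0.05 and -0.36 (adjusted p = 0.922 and 0.583). The values of *Rpl5*, *Rps6* and *Rpl10* depend on how copies are counted, since copies hold 97.4, 93.4 and 88.9% of these families in the main table. In the second table *Rpl5* lay at -0.35 (*Tlr7* KO) and -0.50 (*Ifnar1* KO), *Rps6* at -0.23 and -0.19, and *Rpl10* at 0.25 and 0.26. With gene and copies summed these were -0.39 and -0.55, -0.27 and -0.23, and 0.22 and 0.21, so the sign of *Rpl10* turned in both knockouts and that of *Rps6* in *Ifnar1* KO, and none passed the test. *Rps19*, the gene most often mutated in Diamond-Blackfan anaemia, was lower in *Tlr7* KO (-0.31, SE 0.097, adjusted p = 0.0345), though not in the second table (-0.28, adjusted p = 0.0862), and at -0.46 in *Ifnar1* KO (adjusted p = 0.0616).

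None of the 7 paralogs, genes that resemble another ribosomal protein gene, passed the test with all mice. *Rps27l*, a target of p53, was at 60.3, 96.3 and 57.8 CPM in WT, 85.6, 83.4, 84.0, 84.3 and 101 CPM in *Tlr7* KO and 70.8, 78.7 and 87.2 CPM in *Ifnar1* KO. All knockout mice were above WT mice 1 and 3, and all but *Tlr7* KO mouse 5 were below WT mouse 2. The log2 fold change in *Tlr7* KO was 0.29 with all mice (SE 0.164, adjusted p = 0.196) and 0.56 without WT mouse 2 (adjusted p = 0.000974). *Rpl22l1*, *Rpl36al* and *Rpl7l1* stood at 0.26, -0.08 and 0.13 (*Tlr7* KO) and at -0.09, -0.07 and 0.18 (*Ifnar1* KO) on the log2 scale, all with an adjusted p of at least 0.277. *Rpl3l*, the form of *Rpl3* known from skeletal muscle and heart, was at 1.95, 1.18 and 0.273 CPM in WT, at 2.35 CPM in *Tlr7* KO mouse 4 and at 0.0380 to 0.304 CPM in the other *Tlr7* KO mice, and at 0.102 to 0.299 CPM in *Ifnar1* KO. *Rps4l* was at 0.601 to 2.33 CPM in all mice, and *Rpl39l* was too low to test.

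Between the 2 knockouts 0 of 82 ribosomal protein genes were called in either direction by edgeR, against 0.926% of all genes higher and 0.868% lower in *Tlr7* KO. At an unadjusted p under 0.05, 4 were higher in *Tlr7* KO (*Rpl22*, *Rps10*, *Rps7* and *Rpl39*) and 0 lower (4.88 and 0%, against 8.27 and 8.01% of all genes), and DESeq2 called 0. The median log2 fold change (*Tlr7* KO over *Ifnar1* KO) was 0.08, against 0.00 for all genes, with 60 of 82 values above 0. With library size alone the median was -0.12, against -0.19 for all genes, and with the 10 most abundant genes left out of the library size -0.05, against -0.13. Relative to all genes it was 0.08 after TMM scaling, 0.07 with library size alone and 0.08 with the 10 genes left out. Every *Tlr7* KO mouse was above every *Ifnar1* KO mouse for 3 genes (*Rpl39*, *Rps19* and *Rps7*), against 5.47% of all genes, and below it for none, against 5.24%.

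Counts of a ribosomal protein gene were split with its copies to a degree that differed between the 2 deposited tables. By sequence, 176 other genes of the main table were copies, sharing at least 50% of their 31-base words with a ribosomal protein transcript, and 62 of the 86 genes had at least 1. The copies held 25.1 to 26.6% of the counts of genes and copies together in every mouse of the main table, made by salmon, and 7.77 to 8.43% in the second table. For 21 genes the copies held over 50% of the family's counts in the main table, and for 6 in the second. *Rpl3* had a mean of 5.18 estimated counts per library (0 to 9), and *Rpl3-ps1*, which differs from it at 2 coding bases, had 6479. In the second table *Rpl3* had 2641 counts and *Rpl3-ps1* 1263. *Rpl10* had 1425 estimated counts and *Rpl10-ps3*, identical to it over the coding bases, 11436, against 6174 and 34.2 in the second table.

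Among the 69 tested genes whose mean reached 10 CPM, the 3 that followed the class least belonged to families dominated by copies. With the class deviation of each mouse taken out, the residual SD over the 11 mice was 0.46 for *Rps6*, 0.43 for *Rpl10* and 0.41 for *Rpl28*, against a median of 0.12 for all 82. Of the 13 tested genes under 10 CPM, 3 had a larger residual SD than *Rpl28*: *Rpl3l* (0.78) and *Rps12l1* (0.58), which have no copy, and *Rps13* (0.44), with 93.0% of its family in copies. Copies held 93.4, 88.9 and 91.8% of the counts of the *Rps6*, *Rpl10* and *Rpl28* families. *Rpl28* was at 8.89, 8.52 and 10.8 CPM in WT, 13.5, 9.39, 12.0, 15.2 and 11.8 CPM in *Tlr7* KO and 12.6, 15.2 and 11.1 CPM in *Ifnar1* KO, so that all *Ifnar1* KO mice and 4 of 5 *Tlr7* KO mice were above WT. Its log2 fold change was 0.39 (adjusted p = 0.0726) in *Tlr7* KO and 0.44 (adjusted p = 0.0871) in *Ifnar1* KO. In the second table the same values were -0.00 and -0.07, and with gene and copies summed -0.03 and -0.07. *Rpl10*, which closes the last step of large-subunit assembly, was at 34.4, 110 and 35.5 CPM in WT and 39.9 to 78.1 CPM in the knockouts, so WT mouse 2 was the highest and the other WT mice the lowest of all 11.

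**Figure D4:**
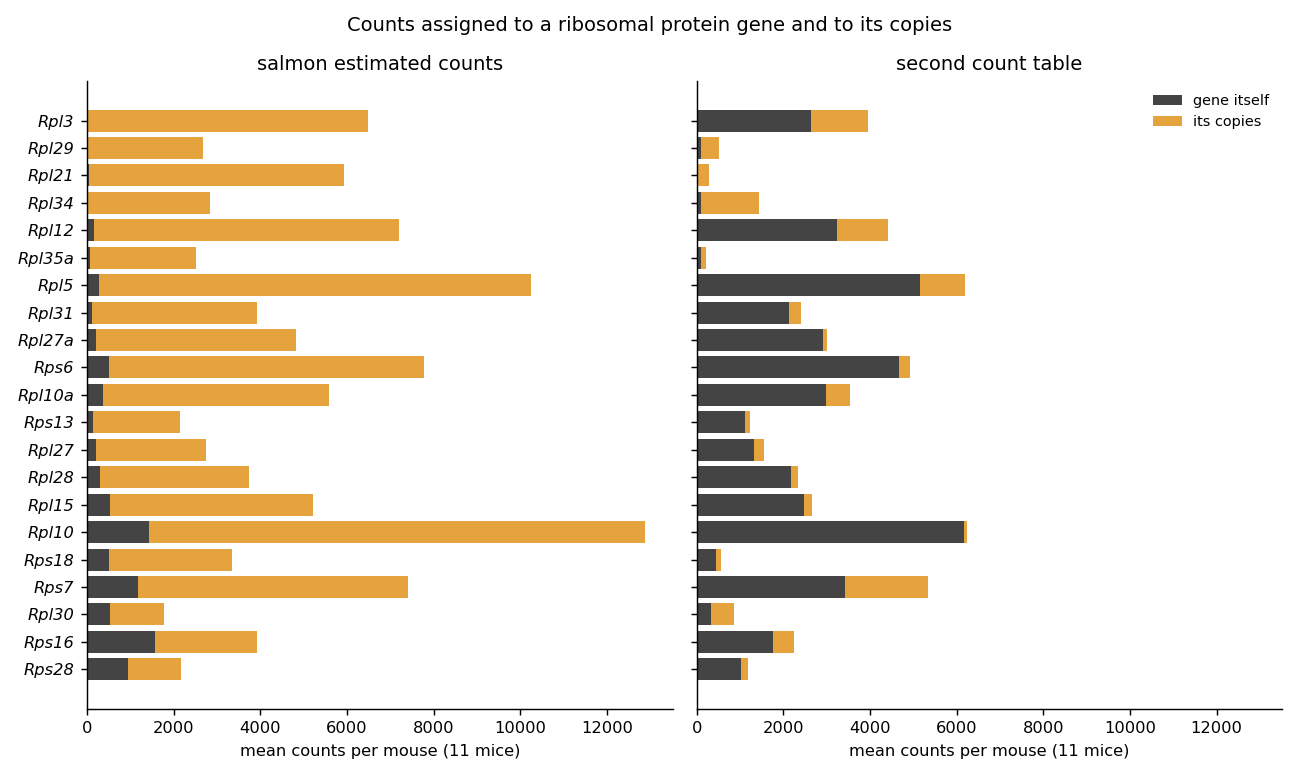
Mean counts per mouse (11 mice) given to a ribosomal protein gene (dark) and to its copies (orange, stacked), for the 21 genes whose copies hold over 50% of the family in the main table, in that table and in the second table. *Rpl3* has 5.18 counts and its copies 6485 in the main table, against 2641 and 1313 in the second.

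Few of the 17 genes called in a knockout had many counts in copies: over 10% of the family for *Rps18*, *Rps19* and *Rps24*, or 3 of the 17. With gene and copies summed, 17 genes were lower in *Tlr7* KO and 11 in *Ifnar1* KO, and 11 and 9 were in the second table, of which 10 and 9 were also called in the main table. In these settings 17.6 and 12.5% of all genes were lower with copies summed (20.5 and 13.3% of the class), and 16.6 and 12.6% in the second table (13.3 and 10.8% of the class). *Rps18*, with 84.9% of its family in copies, had a log2 fold change in *Tlr7* KO of -0.44 alone (adjusted p = 0.0220), -0.30 with its copies (adjusted p = 0.116) and -0.08 in the second table (adjusted p = 0.707). Across the 86 genes, Spearman's rho between the mean CPM of both tables was 0.738, and 9 of the 10 highest genes were shared.

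Other genes of the translation machinery were taken as lists of known members, chosen with earlier results of these data in view. *Rpsa*, a small-subunit protein also known as the laminin receptor, was lower in both (-0.50, adjusted p = 0.00957, and -0.61, adjusted p = 0.0483), and *Fau* was lower in *Tlr7* KO (-0.40, adjusted p = 0.0178) and stood at -0.20 in *Ifnar1* KO (adjusted p = 0.350). *Rack1*, a scaffold protein on the head of the small subunit, did not pass the test in either: it lay at -0.41 (*Tlr7* KO, adjusted p = 0.0510) and -0.63 (*Ifnar1* KO, adjusted p = 0.0623). With the length and GC correction, 0 of the 4 tested ribosomal protein genes outside the symbol rule were lower in either knockout. Their medians were then -0.18 (*Tlr7* KO) and -0.13 (*Ifnar1* KO), or -0.32 and -0.37 relative to all genes. Of 23 tested genes whose mRNAs are known for a pyrimidine start and that are not ribosomal proteins, 5 were lower in *Tlr7* KO and 3 in *Ifnar1* KO, and 0 were higher, with medians of -0.07 and -0.16, where 17.4 and 12.4% of all genes were lower. Both medians were 0.03 without WT mouse 2, with 5 genes higher and 5 lower in *Tlr7* KO and 1 higher and 4 lower in *Ifnar1* KO, so the sign depends on that mouse. In that setting 23.3% of all genes were higher and 25.6% lower in *Tlr7* KO, and 13.6 and 20.8% in *Ifnar1* KO. Relative to all genes the medians were -0.03 and -0.15 with all mice, -0.07 and -0.22 with the length and GC correction, and 0.06 and 0.04 without WT mouse 2. Among the called genes were the noncoding RNA *Gas5* (-0.51 and -0.69) and *Vim*, an intermediate filament gene (-1.72 in *Ifnar1* KO).

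After TMM scaling, translation factors outside the pyrimidine-start list had medians of the opposite sign to ribosomal protein genes. Several elongation and initiation factors, among them *Eef1a1*, *Eef2* and *Eif4b*, were placed in the pyrimidine-start list above and are not counted here. Of 34 genes for translation initiation, elongation and termination, 16 were higher and 0 lower in *Tlr7* KO, with a median of 0.28, and 6 were higher and 0 lower in *Ifnar1* KO, with a median of 0.37, beside 15.3 and 6.76% of all genes higher. With WT mouse 2 left out, 28 and 20 of the 34 were higher, with medians of 0.34 and 0.49, beside 23.3 and 13.6% of all genes. *Eif2b2*, of the exchange factor for eIF2, was at 0.66 (adjusted p = 0.00181) and 0.73 (adjusted p = 0.0222), and *Eif4g3*, a scaffold of the cap-binding complex, at 0.58 (adjusted p = 0.00571) and 0.95 (adjusted p = 0.0216). With library size alone 0 of the 34 were called in either knockout and the median lay at -0.22 (*Tlr7* KO) and 0.10 (*Ifnar1* KO), beside -0.54 and -0.31 for all genes. With the 10 most abundant genes left out, 10 of the 34 were lower in *Tlr7* KO, where 50.7% of all genes were. Relative to the median of all genes the list stood at 0.30 to 0.32 in *Tlr7* KO and 0.37 to 0.41 in *Ifnar1* KO. These ranges cover every scaling tried and the length and GC correction. The scalings move all genes alike, so their similar values follow from the subtraction.

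The remaining lists had smaller values of the same sign after TMM scaling. Ribosome biogenesis genes were higher in 7 of 52 cases in *Tlr7* KO and 5 in *Ifnar1* KO (medians 0.10 and 0.24), among them *Bop1* and *Nolc1*, which act in pre-ribosome assembly in the nucleolus. Of 10 genes of growth signalling, 3 were higher in *Tlr7* KO (*Rheb*, *Rps6kb1* and *Larp1*) and 1 in *Ifnar1* KO (*Larp1*). The protein of *Larp1* binds pyrimidine starts, and its mRNA was higher by 0.23 on the log2 scale in *Tlr7* KO (adjusted p = 0.0357) and by 0.39 in *Ifnar1* KO (adjusted p = 0.0392). Mitochondrial ribosomal protein genes were higher in 16 and 7 of 77 cases (medians 0.16 and 0.17), and proteasome genes in 6 and 1 of 34 (medians 0.14 and 0.08). Of all genes, 15.3% were higher in *Tlr7* KO and 6.76% in *Ifnar1* KO. When WT mouse 2 was left out the mitochondrial genes were higher in 30 and 19 cases, the proteasome genes in 14 and 5, and the growth signalling genes in 5 and 3, while ribosome biogenesis genes were higher in 8 and lower in 3 in *Tlr7* KO (median 0.03) and higher in 8 in *Ifnar1* KO (median 0.19). In that setting 23.3 and 13.6% of all genes were higher. With library size alone the medians of these 4 lists were all below 0 in both knockouts, from -0.41 for ribosome biogenesis in *Tlr7* KO to -0.02 for growth signalling in *Ifnar1* KO, while the median of all genes was lower still. Relative to all genes, which this scaling moves alike, the 4 lists were above 0 in that setting. The values were 0.13, 0.27, 0.21 and 0.17 in *Tlr7* KO for biogenesis, growth signalling, mitochondrial and proteasome genes. In *Ifnar1* KO they were 0.24, 0.29, 0.20 and 0.12 in the same order.

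**Figure D5:**
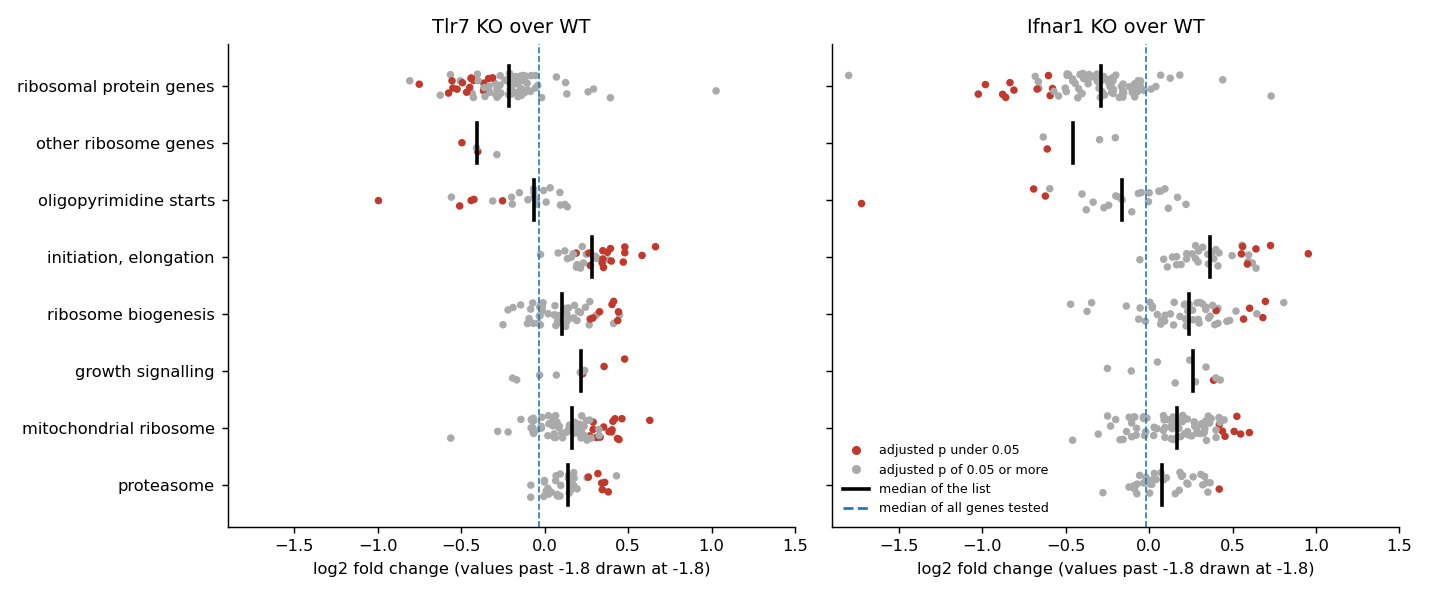
Log2 fold change against WT of each tested gene (red at an adjusted p under 0.05) in the ribosomal protein class and in the related lists, after TMM scaling, with the median of each list (bar) and of all genes tested (dashed line). Values past -1.8 are drawn at -1.8. Ribosomal protein genes have medians of -0.21 and -0.29, and the initiation and elongation list 0.28 and 0.37.

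Some marker lists of immune and gland cells differed between WT and the knockouts, while the plasma cell sums of the 3 groups overlapped. The summed level of 14 B cell markers was 109 to 375 CPM in WT, 8.62 to 68.0 CPM in *Tlr7* KO and 3.68 to 28.0 CPM in *Ifnar1* KO, and all 14 were lower in both knockouts. The sum of 18 T cell markers was 46.0 to 149, 11.1 to 57.6 and 4.06 to 26.7 CPM, with 15 lower in *Tlr7* KO and 16 in *Ifnar1* KO. The sum of 12 myeloid markers was 311 to 562, 226 to 291 and 78.9 to 212 CPM, with 8 lower in each, and that of 13 lacrimal acinar markers was 40383 to 60573, 70956 to 85229 and 70305 to 84220 CPM. The acinar markers went both ways, with 6 higher and 2 lower in *Tlr7* KO and 3 higher and 2 lower in *Ifnar1* KO. No marker was at 0 in all mice. WT mouse 2, where ribosomal protein genes were highest after TMM scaling, had the lowest B cell, T cell and myeloid sums of the WT mice and the highest acinar sum. Its plasma cell sum, 911 CPM, was the highest of all 11 mice, against 759 and 745 CPM in WT mice 1 and 3. Of 9 duct and myoepithelial markers tested, 7 were lower in *Tlr7* KO and 2 in *Ifnar1* KO, and 9 plasma cell markers summed to 690 to 911 CPM over all mice, with 4 lower and 2 higher in *Tlr7* KO (median -0.70) and 2 lower and 2 higher in *Ifnar1* KO (median -0.32). The part of the cell make-up, of the scaling and of transcript length in the lower level of the ribosomal protein genes was not tested.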

How the data were processed

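RNA-seq of whole lacrimal gland was analysed in 11 mice (WT 3, *Tlr7* KO 5, *Ifnar1* KO 3). The main table holds estimated counts that the authors deposited as whole numbers: per the methods, salmon values summed to genes with tximport. Its name says normalized, but its totals (20512315 to 28814250) and scaling factors differ between libraries, so it was read as unnormalized. The second deposited table holds whole-number counts, made with HISAT2 2.1.0 on mm10 per the submitters' processing notes, with totals of 12233586 to 16621073 (the counting tool is not given in the sources used here). A further 1 column, an *Ifnar1* KO library matching no sample, was not analysed here. Per the methods, the authors left 1 *Ifnar1* KO mouse out of their comparisons after looking at principal components and inflammation scores. Nothing in the labels says that the samples of a group differ in more than the mouse, so p-values measure the spread between these mice.

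Members and lists were chosen with earlier results of these data known. A gene was tested if its counts in the 3 WT mice summed to 30 or more (13937 genes), with the edgeR 4.0.16 quasi-likelihood test (R 4.3.3), TMM scaling and Benjamini-Hochberg adjustment, in separate fits for each comparison. Alternatives were other scalings, filters and tools (DESeq2 1.42.0), the second table, a length and GC correction, a replicate block and leaving out each mouse. CPM is TMM-scaled. Deviations used log2 (CPM + 0.5). Gene coordinates and transcripts came from GENCODE M21 (GRCm38), start sites from RefSeq (GRCm38). The pipeline was tested on simulated counts: in WT against *Tlr7* KO it recovered 62% of 100 genes changed 2-fold and 94% of 100 changed 4-fold, and in WT against *Ifnar1* KO 43% and 85%. Smaller changes, such as the class medians of -0.21 and -0.29 on the log2 scale, were not simulated.

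Named genes were the 10 highest by mean CPM, the 6 called genes with the largest change per comparison, the paralogs, members with a known role, and the 3 that followed the class least among those with a mean of at least 10 CPM. The other called genes, *Rpl32* and *Rps12* were added with their values known. Some genes are not reported here by name.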

Additional observations from a re-analysis of the deposited data

Results flagged for a closer look

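Values in the 5 *Tlr7* KO mice were compared with a 95% criterion for a single distant mouse (Dixon), which chance alone meets in about 1 of 20 groups, over 33 measures that share libraries. *Tlr7* KO mouse 5 lay far from the other 4 mice for 9 genes, always as the highest: *Rplp0* (615 CPM), *Rpl41* (499 CPM), *Rplp1* (480 CPM), *Rps27a* (275 CPM), *Rps27l* (101 CPM), *Rpl22* (93.7 CPM), *Rpl39* (89.5 CPM), *Rpl36a* (69.9 CPM) and *Rpl22l1* (58.2 CPM). It also had the highest class deviation (0.0812 on the log2 scale) and the lowest class share of counts (0.885%) of its group. This mouse had the lowest TMM factor of all 11 (0.69) and the largest share of counts in the 10 most abundant genes (65.9%). Without it, 18 ribosomal protein genes were lower in *Tlr7* KO (22%, against 14.8% of all genes), 13 of them among the 15 called with all mice. In *Tlr7* KO mouse 4 the paralog *Rpl3l* stood far above the other 4 mice, at 2.35 CPM. The cause of these values was not tested.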

How the results depend on the processing

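Of the ribosomal protein genes, 67 were lower in *Tlr7* KO with library size alone (median log2 fold change -0.69), 72 with the 10 most abundant genes left out of the library size (median -0.64), 65 in the second table with library size alone (median -0.56), 2 at an adjusted p under 0.01, 2 with the length and GC correction (1 higher) and 0 with the replicate block. Of all 13937 genes, 4275, 7072, 1000, 1760 and 12 were lower with library size alone, the 10 genes left out, an adjusted p under 0.01, the correction and the block, and 3093 of 13050 were in the second table with library size alone. In *Ifnar1* KO 25 were lower with library size alone (median -0.55), 57 with the 10 most abundant genes left out (median -0.57), 17 in the second table with library size alone, 0 at an adjusted p under 0.01, 1 with the length and GC correction (1 higher, median -0.016) and 0 with the block, and 19 with DESeq2, 6 with no filter and 25 with a single fit of all mice. Of all genes, 1288 were lower there with library size alone, 2329 with the 10 genes left out, 1 at an adjusted p under 0.01, 1554 with the correction, 2094 with DESeq2, 1654 with no filter, 2666 with a single fit, 943 in the second table with library size alone and 0 with the block, so the zeros are not particular to ribosomal protein genes. Between the knockouts the median was -0.12 with library size alone, -0.047 with the 10 most abundant genes left out and -0.089 in the second table with library size alone. Leaving out 1 mouse at a time gave 0 to 5 genes higher and 5 to 18 lower in *Tlr7* KO (1311 to 3451 of all genes lower), and 0 to 11 lower in *Ifnar1* KO (0 to 2805 of all genes). *Rpl7l1* in *Tlr7* KO was called lower (-0.30) with the 10 most abundant genes left out. Over the mice left out in turn, *Rpl10* in *Tlr7* KO ranged from -0.33 (without WT mouse 1) to 0.72 (without WT mouse 2) and *Rpl36al* from -0.20 (without WT mouse 3) to 0.19 (without WT mouse 2).

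The class share of counts in WT, *Tlr7* KO and *Ifnar1* KO was 4.08, 2.51 and 2.56% without the 10 most abundant genes, 2.05, 1.35 and 1.42% in the second table, 2.26, 1.36 and 1.46% with gene and copies summed, and 2.24, 1.47 and 1.54% with both, so WT was the highest in each. Summing with copies and the second table with library size alone were chosen after seeing the data. Mice with the same number did not deviate together in WT and the knockouts (r of -0.47 to -0.02 over genes). Between the knockouts r was 0.06, 0.35 and 0.22. These few values do not settle whether mice of the same number shared a batch, and the labels name none. The replicate block left 0 of the 15 and 0 of the 10 lower genes. Between the knockouts it called 1, *Rpl10* higher in *Tlr7* KO (1.22% of the class, against 2.64% of all genes). Between the knockouts *Rpl10* stood at -0.0059 in the second table and -0.0032 with copies summed, without the block. The cause of these shifts was not tested, except that with library size alone the median of all genes moved too. Depth limits the 9 genes under 1 CPM, where 3 counts equal 0.082 to 0.158 CPM.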
